A study of Mus musculus with 2 samples.

Results

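The 10 genes described here are widely used as transcriptional readouts of bone morphogenetic protein (BMP) signalling. They are *Id1*, *Id2*, *Id3* and *Id4*, which encode inhibitors of DNA binding, *Smad6* and *Smad7*, which encode inhibitory SMAD proteins, *Bambi*, which encodes a pseudoreceptor, *Atoh8*, which encodes a basic helix-loop-helix (bHLH) factor, and the homeobox genes *Msx1* and *Msx2*. They were chosen by name, and whether signals other than BMP set their levels in these explants was not tested. Each of these names was carried by 1 array feature, a 60-base oligonucleotide printed in 4 spots on every array. All 10 passed the filter on dim features, as 20119 of the 29924 gene names on the array did.

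The explants were ureters of NMRI mouse embryos, taken at E11.5 and kept in culture for 18 h, either with 10 µM IWP-2 or with the solvent DMSO alone as a control. IWP-2 inhibits PORCN, the acyltransferase that modifies WNT proteins before they are secreted, and it acts on every WNT-producing cell of the explant. Both groups were wild type and shared the same serum-free medium. Ureters were pooled for RNA extraction, so a value stands for a pool and not for 1 embryo, and the spread between replicates is the spread between 2 such comparisons. Each of 2 Agilent arrays held the RNA of 1 treated and 1 control pool. AlexaFluor647 marked the treated pool of replicate 1 and the control pool of replicate 2, and AlexaFluor555 marked the other pool of each. In the 4 channels, the share of spots clearly brighter than background ran from 68.6% to 70.7%, and outlier marks fell on 4.51% of spots of replicate 1 and 3.30% of replicate 2, with 0 spots saturated. All 10 markers of ureteric mesenchyme and all 10 of ureteric epithelium were measured, including *Tbx18* and *Cdh1*.

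BMP ligands bind pairs of type I and type II receptors, which phosphorylate SMAD1, SMAD5 and SMAD9. These form complexes with SMAD4, enter the nucleus and bind GC-rich elements and GTCT boxes near their target genes. The *Id* genes are among the most direct targets in many cell types, and SMAD6, SMAD7 and BAMBI are targets that dampen the signal in turn. In the ureter, BMP4 from the mesenchyme is known for its role in the differentiation of smooth muscle.

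All 10 genes were lower in IWP-2-treated than in control ureters on both arrays, where 27.5% of all genes tested were lower on both. Of them, 5 passed a false discovery rate (FDR) of 0.05 in limma as lower, namely *Msx1*, *Id2*, *Atoh8*, *Id1* and *Id4*. Of all genes, 1.15% passed this threshold as lower (232 of 20119) and 0.611% as higher (123). The mean changes of the 10 genes, given here and below as log2 ratios of IWP-2 over control, ran from -0.96 for *Msx1* to -0.44 for *Smad7*, that is, from 1.95-fold to 1.36-fold lower. Their median was -0.69. By array, it was -0.81 on replicate 1 and -0.62 on replicate 2, beside medians of -0.01 and 0.02 over all genes. Each of the 10 lay between the lowest 0.497% and the lowest 2.04% of all changes, and 0 of them were 2-fold lower or more on the mean. On processed intensities, without the constant of 50 that the main values hold, 2 were, *Bambi* (-1.13) and *Msx1* (-1.01). An unadjusted p under 0.05 was reached by all 10, and by 4.74% of all genes as lower (954 of 20119). As the genes were chosen with results of these arrays known, no test of the list as a whole is given. In tissue RNA of this kind, fewer cells of a type and less RNA per cell cannot be told apart.

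**Figure D1:**
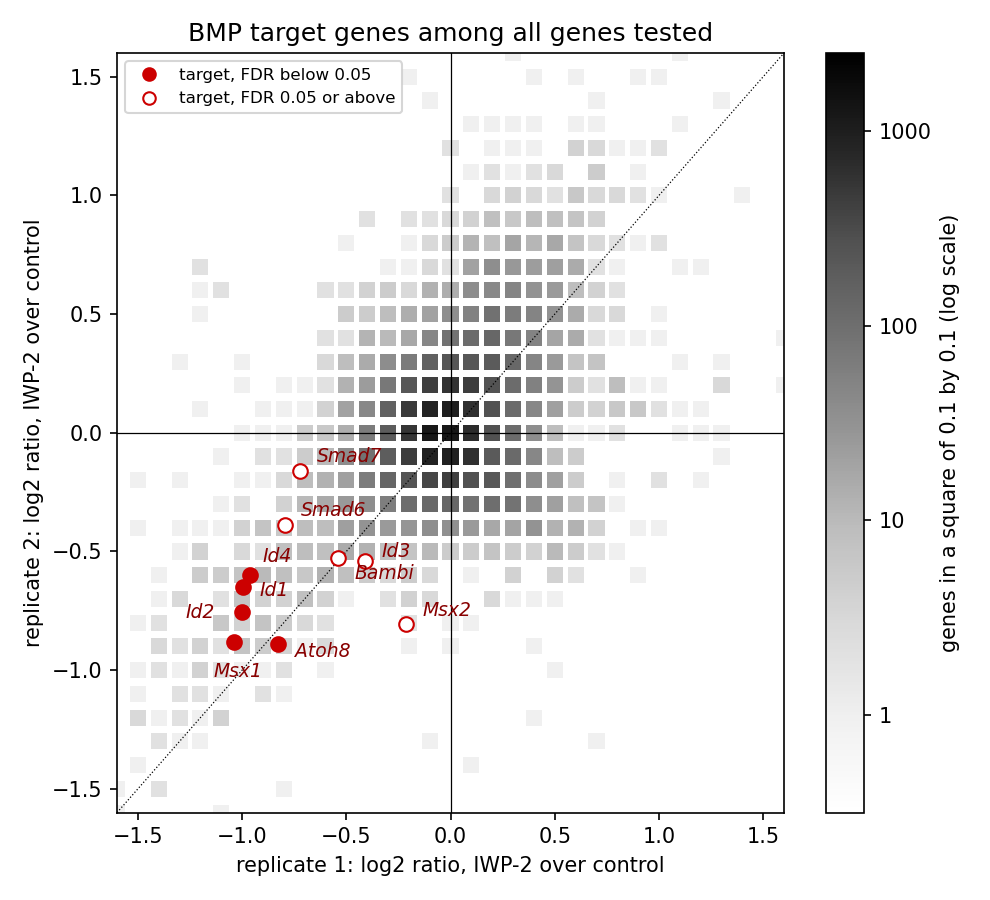
Change on replicate 1 (x axis) against change on replicate 2 (y axis), both as log2 ratios of IWP-2 over control. Grey squares show how many of the 20119 genes fell into each bin (54 lay outside the range drawn), red points the 10 BMP target genes, filled where limma's FDR was below 0.05; all 10 lie in the lower left, and 7 lie above the dotted line of equal change because they fell further on replicate 1.

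RefSeq promoter sequences (build GRCm38.p6, which differs from that of the array features) were used for 7 of the 10 genes, and the 250 bases before the annotated start are printed for the 4 of these whose fall passed the threshold, since they moved together. *Id2* lies on the minus strand of chr12:25096093-25096342, *Id4* on the plus strand of chr13:48260866-48261115, *Atoh8* on the minus strand of chr6:72235578-72235827 and *Msx1* on the minus strand of chr5:37824586-37824835. Each is written 5′ to 3′ along the gene. Capitals mark, on either strand, matches to GGCGCC and GCCGNCGC (GC-rich SMAD elements), GTCT (the SMAD box), and CTTTGAT and CTTTGTT (elements of the TCF/LEF factors that act in WNT signalling).
Id2: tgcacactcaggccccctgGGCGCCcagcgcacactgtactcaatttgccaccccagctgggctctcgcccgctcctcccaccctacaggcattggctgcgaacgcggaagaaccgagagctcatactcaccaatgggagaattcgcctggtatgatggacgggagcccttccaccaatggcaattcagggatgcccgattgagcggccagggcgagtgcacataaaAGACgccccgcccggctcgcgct
Id4: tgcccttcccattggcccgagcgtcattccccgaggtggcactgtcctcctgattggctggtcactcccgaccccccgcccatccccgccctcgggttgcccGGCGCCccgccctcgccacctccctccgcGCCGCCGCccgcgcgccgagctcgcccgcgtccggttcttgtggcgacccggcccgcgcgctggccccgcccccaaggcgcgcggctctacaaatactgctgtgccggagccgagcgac
Atoh8: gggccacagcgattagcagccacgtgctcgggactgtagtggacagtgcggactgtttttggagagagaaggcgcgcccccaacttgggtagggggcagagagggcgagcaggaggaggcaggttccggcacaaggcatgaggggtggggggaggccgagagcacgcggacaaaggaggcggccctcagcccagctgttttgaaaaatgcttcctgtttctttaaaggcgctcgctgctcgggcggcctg
Msx1: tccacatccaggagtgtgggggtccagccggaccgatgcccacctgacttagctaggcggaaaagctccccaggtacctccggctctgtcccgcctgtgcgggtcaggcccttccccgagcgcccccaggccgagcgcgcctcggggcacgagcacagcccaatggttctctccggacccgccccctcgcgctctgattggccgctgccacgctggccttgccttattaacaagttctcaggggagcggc
*Id2* held 1 match to GGCGCC, from 231 to 226 bases before the start, and 1 GTCT box on the opposite strand, from 23 to 20 bases before the start. *Id4* held GGCGCC from 148 to 143 bases and GCCGNCGC from 119 to 112 bases before the start. No searched letters were found in the windows of *Atoh8* and *Msx1*. Over the 7 windows, GGCGCC was present in 2 (9.59% of 32851 promoters in the table), GCCGNCGC in 2 (6.89%), GTCT in 4 (82.9%), CTTTGAT in 0 (3.21%) and CTTTGTT in 0 (5.03%). The 7 windows held between 61.6% and 75.6% G and C, beside a median of 52.4% over all promoters in the table. A match describes the letters of these windows only and is no evidence of binding.

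The ID proteins bind the widely expressed bHLH factors and keep them from binding DNA, which holds cells in an undifferentiated state. The array feature of *Id2* lies at chr12:25778904-25778963 on the minus strand, in build mm9 as for all array features here. Processed intensities of *Id2* were 10801 (treated) and 21479 (control) on replicate 1, and 10277 and 17727 on replicate 2. Both treated values lay below both control values. For this gene and those below, the share of all genes separated in this way was not computed, so the separation only describes the values. The change was -1.001 on replicate 1 and -0.75 on replicate 2, with a mean of -0.88 ± 0.18 (SD between arrays, n = 2), or 54.4% of the control level (limma, adjusted p = 0.0184). The processed intensity used here is the signal after the scanner software had subtracted background and balanced the dyes, while changes were computed from the uncorrected mean signals by normexp and loess.

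*Id1* (chr2:152563083-152563142, plus strand) gave 1904 in the treated and 3702 in the control pool of replicate 1, and 2225 and 3556 on replicate 2. Treated and control pools did not overlap. Its change was -0.996 and -0.65, with a mean of -0.82 ± 0.24 and an adjusted p of 0.0300 in limma. *Id4* (chr13:48358668-48358727, plus strand), a family member best known from neural precursors, gave 2751 against 5174 and 3188 against 4966. It fell by 0.96 and 0.60, with a mean of -0.78 ± 0.26 (adjusted p = 0.0367 in limma). Over 14 limma fits that differed in processing, *Id1* passed FDR 0.05 in 7 and *Id4* in 6. For *Id1*, *Id2* and *Id4*, the fall was larger on replicate 1 than on replicate 2, and with 2 arrays the pools and the dyes cannot be told apart as sources of that difference.

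*Id3* (chr4:135700075-135700249, plus strand) was the one gene of this family that did not pass the threshold. Whether its change differed from that of the other *Id* genes was not tested. Its array feature covers a stretch of 175 genomic bases, more than its own length. Intensities were 17401 in the treated and 23942 in the control pool of replicate 1, and 10952 and 16377 on replicate 2. Within each array the treated pool was lower, but the treated pool of replicate 1 was brighter than the control pool of replicate 2. The change was -0.41 and -0.54, with a mean of -0.48 ± 0.09, and did not pass the threshold (adjusted p = 0.0831 in limma; 95% confidence interval of the fit -0.72 to -0.23). *Id3* was also the one gene of the 10 whose value on an array changed sign with the background correction, normalization or spots used. With arrays centred on their median in place of loess, its value was 0.19 on replicate 1 and -1.09 on replicate 2.

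**Figure D2:**
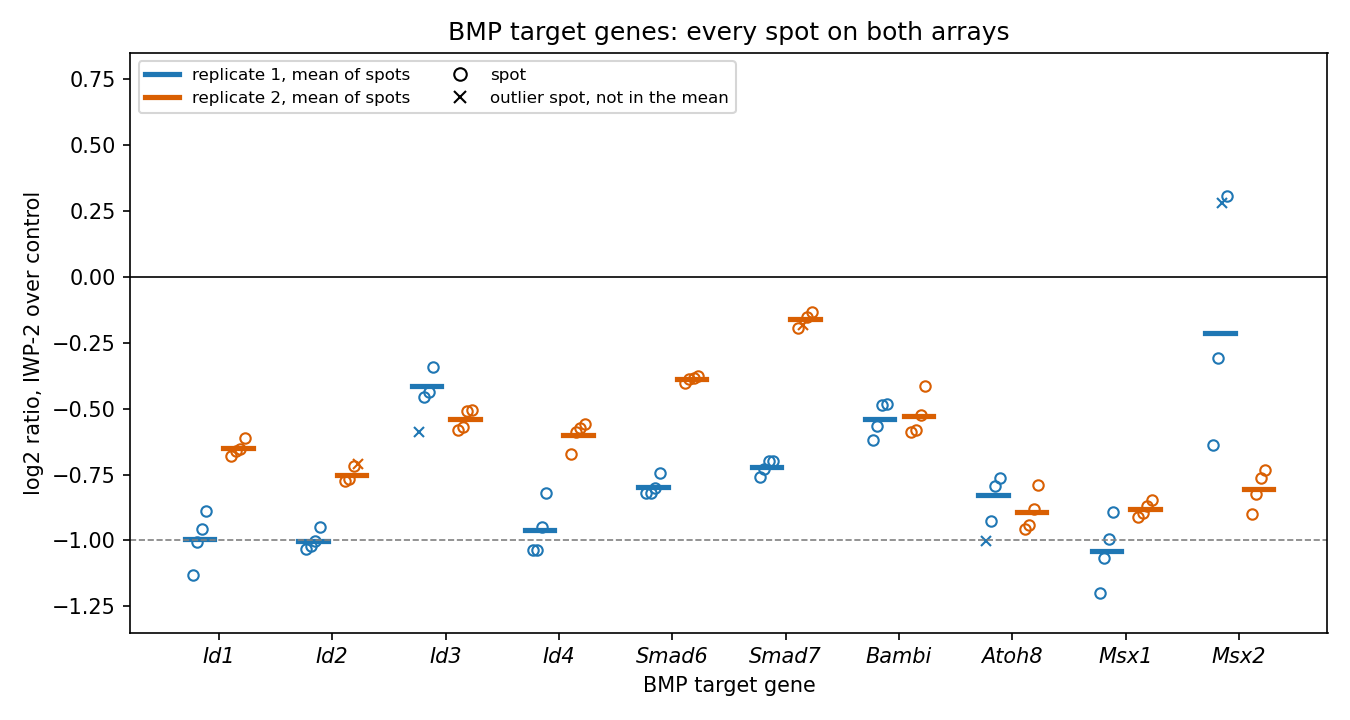
Log2 ratio of IWP-2 over control (y axis) of every spot of the 10 BMP target genes (x axis) on replicate 1 (blue) and replicate 2 (orange); bars are the means of the spots used, crosses are spots marked as outliers, and the dashed line is a 2-fold decrease. All spots lie below 0 except 2 spots of *Msx2* on replicate 1.

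*Smad6* and *Smad7* encode inhibitory SMAD proteins, which block receptors and SMAD complexes. *Smad6* (chr9:63800980-63801039, minus strand) gave 834 in the treated and 1457 in the control pool of replicate 1, and 911 and 1209 on replicate 2. The treated values lay below both control values. The changes were -0.80 and -0.39, with a mean of -0.59 ± 0.29, which did not pass the threshold in limma (adjusted p = 0.0852). The spots of a replicate lay close together (SD 0.04 on replicate 1 and 0.01 on replicate 2), so the spread was one between arrays. *Smad7* (chr18:75555371-75555430, plus strand) gave 1168 against 1919 on replicate 1 and 1320 against 1494 on replicate 2. Its changes of -0.72 and -0.16 averaged -0.44 ± 0.40, the smallest of the 10 (adjusted p = 0.251 in limma, 95% confidence interval -0.79 to -0.09). Treated and control pools of *Smad7* did not overlap, though its fall did not pass the threshold. Every spot of both genes had a ratio below 0 on both arrays.

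*Bambi* encodes a membrane protein that resembles a type I receptor without the kinase and competes with it. Its signal was close to the local background. Mean signals on replicate 1 reached 167 over a local background of 87.3 for the treated pool and 116 over 29.0 for the control pool, and all 4 spots were well above background on both arrays. Processed intensities were 10.2 against 22.0 on replicate 1 and 7.66 against 17.0 on replicate 2. *Bambi* (chr18:3516008-3516067, plus strand) changed by -0.54 and -0.53 (mean -0.53 ± 0.01), the smallest spread between arrays of the 10, with an adjusted p of 0.0580 in limma. The constant of 50 added to the signals before the log shrinks ratios of dim features, and on processed intensities the ratios were -1.11 and -1.15, with an adjusted p of 0.0200 in limma (range over all alternatives 0.0200 to 0.908). Adjusted over all 26947 array features rather than over genes, 6 of the 10 passed the threshold, the sixth being *Bambi* (adjusted p = 0.0489 in limma), as did 1.23% of all features as lower (331).

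*Atoh8* encodes a bHLH factor whose values on the 2 arrays lay close together. Its array feature (chr6:72156816-72156875, minus strand) gave 374 in the treated and 662 in the control pool of replicate 1, and 380 and 730 on replicate 2. It changed by -0.83 and -0.89, with a mean of -0.86 ± 0.04 and an adjusted p of 0.0140 in limma. Both treated pools lay below both control pools. *Atoh8*, *Id3* and *Msx2* were the 3 genes that fell further on replicate 2 than on replicate 1.

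*Msx1* and *Msx2* encode homeodomain repressors that follow BMP signals in limb, tooth and skull. *Msx1* (chr5:38212305-38212364, minus strand) had intensities of 238 in the treated and 504 in the control pool of replicate 1, and 240 and 456 on replicate 2. The groups did not overlap. Its changes of -1.04 and -0.88 gave the lowest mean of the 10, -0.96 ± 0.11, or 51.4% of the control level (adjusted p = 0.0117 in limma).

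*Msx2* (chr13:53562318-53562377, minus strand) gave 548 in the treated and 639 in the control pool of replicate 1, and 378 and 681 on replicate 2. It changed by -0.21 and -0.81, with a mean of -0.51 ± 0.42 (adjusted p = 0.20 in limma), and had the largest spread between arrays of the 10. The spots of replicate 1 were split. A pair of spots with treated mean signals of 1890 and 2949 had ratios of -0.64 and -0.31, and the other pair, with treated signals of 9831 and 10027, had ratios of 0.28 and 0.31, of which the first was marked as an outlier and not used. On replicate 2, the 4 spots ran from -0.90 to -0.73. The value of *Msx2* on replicate 1 thus rests on spots that disagree by more than their mean (SD between spots 0.48).

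**Figure D3:**
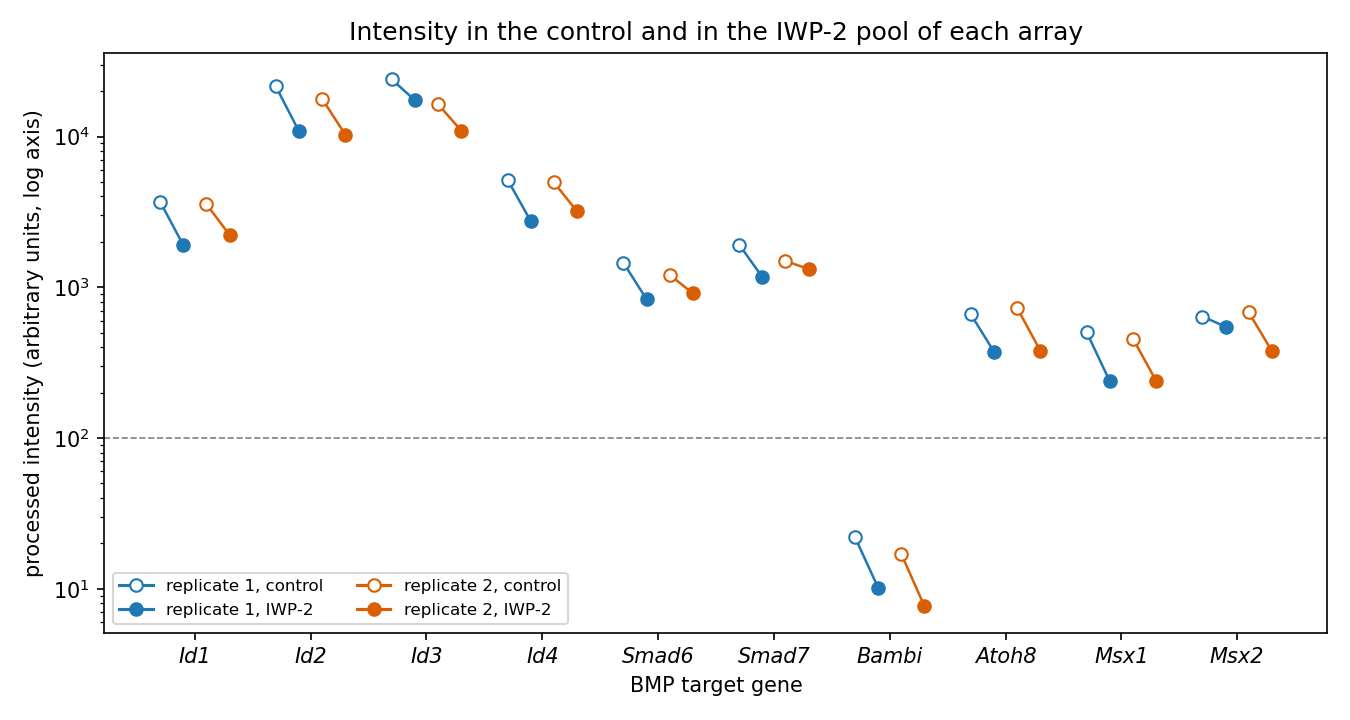
Processed intensity (y axis, arbitrary units, log axis) of the 10 BMP target genes (x axis) in the control pool (open circles) and the IWP-2 pool (filled circles) of replicate 1 (blue) and replicate 2 (orange), as the geometric mean of the spots used; the dashed line is an intensity of 100. Each line falls from control to IWP-2, and levels of different genes are levels of different oligonucleotides and are not comparable.

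Across the 10 genes, the median SD between arrays was 0.21, beside 0.11 over all genes. The 95% confidence intervals of the fit overlapped for every pair of the 10 genes, from *Msx1* (-1.21 to -0.71) to *Smad7* (-0.79 to -0.09). Overlap of intervals is no test of a difference. Differences between the genes were not tested, so no order is claimed. The calls depended on the processing. With median centring, 0 of the 10 passed FDR 0.05 in limma although 8 had an unadjusted p under 0.05, as 2.08% of all genes had as lower (418 of 20119). The same centring called 36 genes lower and 7 higher over the array, where loess gave 232 and 123. The count of members was also 0 in limma fits of single channels that ignored which pools shared an array. It was 0 on the deposited series table too, where limma called 1322 genes lower and 1038 higher. The folds there are rounded to 1 decimal, which distorts the spread between arrays, so no conclusion is drawn from that 0. An exact sign permutation over 2 arrays cannot give a two-sided p below 0.5 for a single gene, so each adjusted p rests on the variance that limma shares between genes.

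A filter modelled on the study's selection asked for an intensity of at least 100 and a fold change of at least 2 on both arrays. On the processed intensities, it took 0 of the 10 genes and 0.343% of the bright genes as lower (50 of 14566). *Bambi* was not bright enough, and *Msx1* came closest among the other 9, at 2.12-fold lower on replicate 1 and 1.90-fold lower on replicate 2. With a fold change of 1.5 the filter took *Id1*, *Id2*, *Id4*, *Atoh8* and *Msx1*, the same 5 genes that passed the limma threshold, and 1.13% of the bright genes (164 of 14566).

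The genes that carry the BMP signal to these targets were set beside them. Of 9 BMP ligand genes, 3 passed FDR 0.05 in limma as lower and 0 as higher (3 higher at an unadjusted p under 0.05): *Bmp4* (-0.56 and -0.91 on replicates 1 and 2, adjusted p = 0.0416 in limma), *Bmp5* (-0.86 and -0.75, adjusted p = 0.0180) and *Gdf7* (-1.01 and -0.92, adjusted p = 0.0108), the lowest of the list. The highest was *Bmp2* (0.33 and 0.86, adjusted p = 0.119). Of 10 receptor and co-receptor genes, 0 passed in either direction in limma (unadjusted p under 0.05 in 1, higher), with means from -0.25 (*Acvr1*) to 0.26 (*Acvrl1*), and with -0.12 for *Bmpr1a* and 0.09 for *Bmpr2*. Of 6 SMAD transducer genes, *Smad9* alone passed (-1.47 and -0.81, adjusted p = 0.0291 in limma), and *Smad1* (0.08, the highest), *Smad5* (-0.02) and *Smad4* (0.04) had means near 0. The medians of these lists were -0.17, 0.02 and 0.01, and that of the 10 targets was -0.69. As the 10 were chosen with results of these arrays known, the gap only describes the lists and is no test.

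Of 11 measured extracellular antagonists and modulators, 1 passed as lower, *Bmper*, which encodes a secreted BMP-binding protein (-0.86 and -0.58, adjusted p = 0.0376 in limma), and the highest was *Sostdc1* (0.33). Of 8 intracellular brakes of the pathway outside the 10 genes, 0 passed in limma, and 0 had an unadjusted p under 0.05. Their means ran from -0.13 (*Tob2*) to 0.09 (*Nedd4l*). Those of *Smad6*, *Smad7* and *Bambi* lay between -0.59 and -0.44. Of 11 other measured genes named as BMP responsive, 2 passed as lower, the transcription factor genes *Sox9* (-1.53 and -1.06, adjusted p = 0.0108) and *Gata2* (-0.84 and -0.57, adjusted p = 0.0390), and 0 as higher (2 at an unadjusted p under 0.05), with *Hey1* highest (0.60, adjusted p = 0.0537 in limma). Among the bHLH factors that the ID proteins bind, *Tcf12* had a mean of -0.68 (adjusted p = 0.0606), *Tcf3* of -0.22 and *Tcf4* of 0.20, and 0 of 3 passed the threshold in limma (1 with an unadjusted p under 0.05, *Tcf12*).

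**Figure D4:**
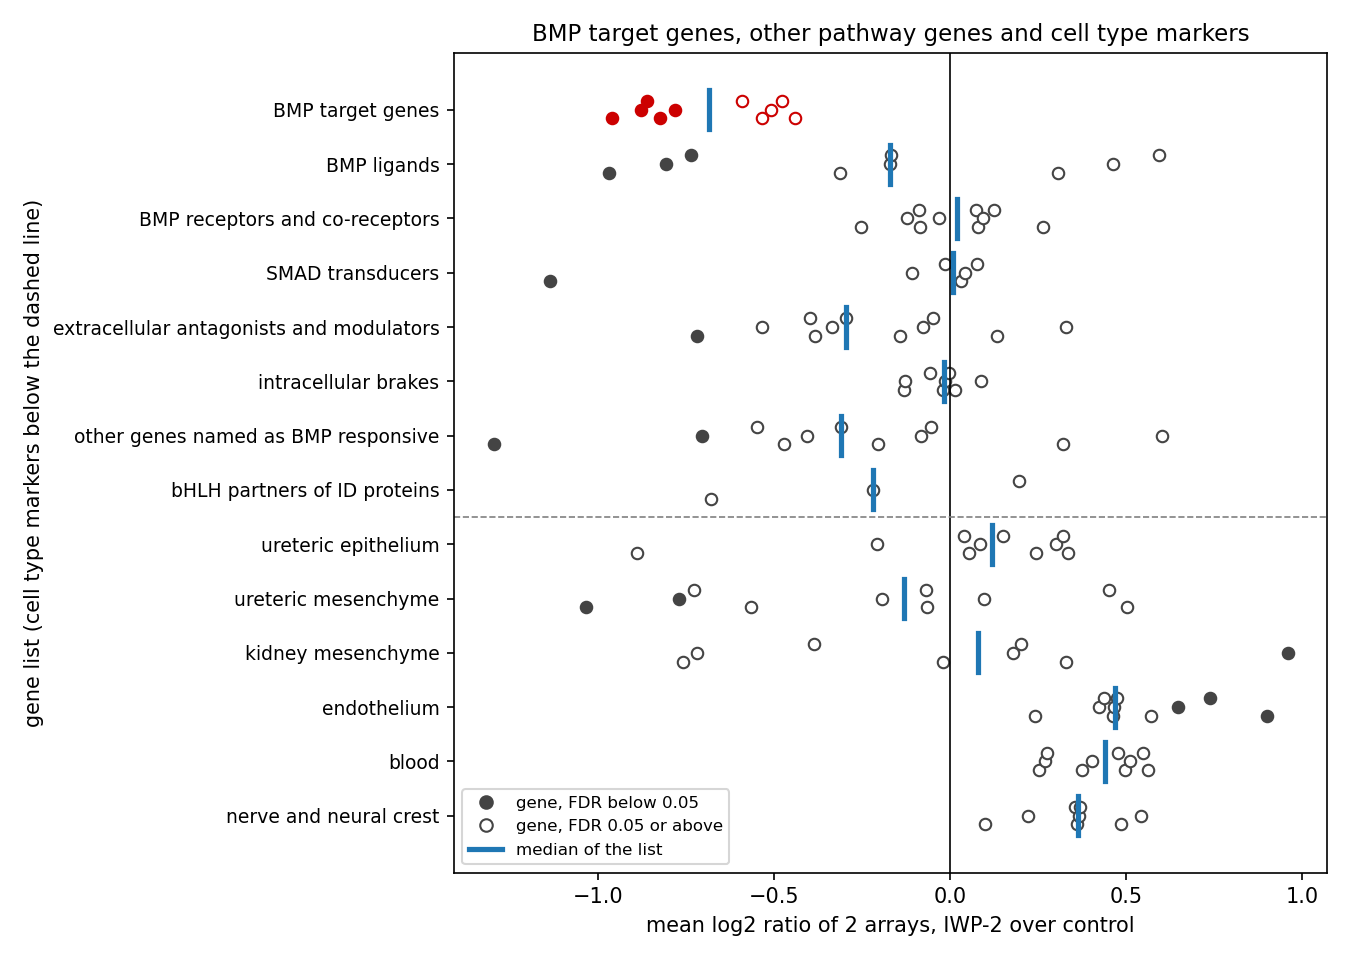
Mean change of 2 arrays (x axis, log2 ratio of IWP-2 over control) for the 10 BMP target genes (red), 7 lists of other pathway genes and 6 lists of cell type markers (y axis); points are genes, filled where limma's FDR was below 0.05, and blue bars are medians. The target genes, chosen with results of these arrays known, lie between -0.96 and -0.44. The medians of the other pathway lists lie between -0.31 and 0.02, and that of the endothelial markers at 0.47.

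Most markers of endothelium, blood and nerve had higher values after IWP-2. Over all 20119 genes, 1745 had an unadjusted p under 0.05 in limma as higher and 954 as lower, and 0.611% passed FDR 0.05 as higher. The share of all genes higher on both arrays was not computed. *Id1*, *Id3*, *Smad6*, *Smad7* and *Atoh8* are also known from endothelium, and all 10 endothelial markers were higher after IWP-2 on both arrays, 3 of them past FDR 0.05 (*Sox17*, *Kdr* and *Cldn5*, with a median over the list of 0.47). Their summed level reached 139282 (treated) against 101607 (control) on replicate 1, and 124928 against 78201 on replicate 2. Of 10 blood markers 9 were higher on both arrays (median 0.44, 0 past FDR 0.05 in limma, 9 with an unadjusted p under 0.05), with sums of 934002 and 633421 in the treated and 731080 and 453729 in the control pools. Of 8 markers of nerve and neural crest 7 were higher on both (median 0.36, 0 past FDR 0.05 in limma, 6 with an unadjusted p under 0.05), with sums of 227309 and 228671 against 164545 and 174780. Of 10 markers of ureteric mesenchyme, *Tbx18* (-1.03) and *Tcf21* (-0.77) passed as lower and 0 as higher. On both arrays 6 were lower and 3 higher, and the list median was -0.13. An unadjusted p under 0.05 in limma was reached by 4 as lower and 2 as higher, *Pdgfrb* (0.50) and *Twist1* (0.45). The sums of this list were 436282 (treated) against 492740 (control) on replicate 1 and 430463 against 419566 on replicate 2. The epithelial markers had a median of 0.12 with 0 of 10 past FDR 0.05 in limma (unadjusted p under 0.05 in 1 lower and 3 higher). Their means ran from -0.89 (*Shh*) to 0.33 (*Cldn3*). Among 8 markers of kidney mesenchyme *Meox1* passed as higher (0.96; list median 0.08), and *Sall1* was lowest (0.29 and -1.81 on replicates 1 and 2). An unadjusted p under 0.05 in limma was reached by 2 as lower and 1 as higher. The 2 arrays differed in direction for this list, with medians of 0.19 on replicate 1 and -0.29 on replicate 2. Its sums were 90317 (treated) against 76920 (control) on replicate 1 and 77749 against 94414 on replicate 2. None of the markers was without signal, and the part of these cell types in the values of the 10 target genes was not tested.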

How the data were processed

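The values are intensities that the scanner software wrote for every spot and its surroundings in 2 colours, deposited by the authors before any normalization, beside a processed intensity that the same software had corrected for background and dye. The software, Feature Extraction, is given as version 10.7.3.1 in the submitters' processing notes and 12.2.0.7 in the file headers. Both arrays were read in 1 scan. The deposited series table holds another unit, the authors' signed fold of treated over control with 1 decimal. Its direction matched the log2 ratios (Pearson r across 26947 array features, which are not independent, 0.921 and 0.959).

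With R 4.3.3, limma 3.58.1 and the data.table package (1.17.8), mean intensities were corrected by normexp (offset 50), normalized by loess within the array, turned to IWP-2 over control and averaged over spots without outlier marks. Array features were kept where over a share of 0.5 of the spots was well above background in 1 condition on both arrays, and the brightest one stood for a gene. The functions lmFit and eBayes gave p-values, with Benjamini-Hochberg adjustment across the 20119 genes (FDR 0.05). The ratio within an array pairs a treated pool with its control pool, so the replicate block is part of each value. The labels do not say more than that the replicates were separate. The p-values rest on the spread between 2 arrays (1 residual degree of freedom) and on the variance that limma shares between genes (5.52 prior degrees of freedom). The number of arrays limits the precision. The procedure was tested on simulated spots. Summed levels of lists are sums of normalized intensities on the linear scale.

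All 10 genes are named. Of the other pathway lists, those past FDR 0.05, the highest, the lowest and core pathway genes are named. Of the cell type markers, those past FDR 0.05 and a few others are named, and an unnamed marker can have changed more than a named one. Genes and lists were chosen with earlier results of these data known. Alternatives concerned background, normalization, spots, filters, the prior variance, the pairing and the thresholds.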

Additional observations from a re-analysis of the deposited data

How the results depend on the processing

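In 7 alternatives that changed the values themselves, all 10 genes kept a mean below 0, with means between -1.13 (*Bambi*, processed intensities) and -0.16 (*Smad7*, without replicate 1). The median of the 10 ran from -0.81 to -0.62 when each replicate was left out, and was -0.80 on processed intensities and on the series table. No call at an FDR can be given for 1 array. *Atoh8* and *Msx1* passed FDR 0.05 in limma most often, in 10 of 14 fits each, followed by *Id2* in 9, *Id1* in 7, *Id4* in 6, *Bambi* in 4 and *Smad6* in 2, and *Id3*, *Smad7* and *Msx2* in 0 of 14.

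The counts moved more. For genes called lower and higher over the array, members called, and other BMP pathway genes called lower, in this order, median centring gave 36, 7, 0 and 1, no filter on dim features 98, 21, 2 and 2, and FDR 0.01 55, 9, 0 and 0. The series table gave 1322, 1038 and 0 members. Processed intensities gave 75 genes higher and 3 pathway genes lower, and no background correction gave 74 and 4. A trended prior gave 224 genes higher, with robustness 226, and the mean over array features 224, each with 1 pathway gene higher. These called 7, 7 and 6 members. Adjusted over all array features, the members called were 1 with median centring, 2 without the filter, 2 at FDR 0.01 and 0 on the series table. The filter on intensity and fold change took 5 members and 164 genes at 1.5-fold, 1 and 80 on the mean fold change, and 0 to 1 and 63 to 128 without each replicate.

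Without the replicate block, that is, with the pairing of pools ignored, limma called 15 genes lower, 2 higher, 0 of the 10 members over genes or over array features, and 0 pathway genes. Models added after seeing the data gave 84, 9, 3 and 2 with an estimated correlation of paired channels, and 0, 0, 0 and 0 with a dye term in its place. Where limma called 0 members, those with an unadjusted p under 0.05 numbered 8 (median centring, where 418 genes had one as lower), 6 (series table, 1555), 9 (no block, 773), 8 (dye term, 565) and 10 (FDR 0.01, 954). Array and dye together leave no residual degree of freedom, so that model could not be fitted. The causes were not tested. *Bambi* was the gene with a signal close to background.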
